A study of Mus musculus with 14 samples.

Results

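NF-κB is a family of dimeric transcription factors that is held inactive in the cytoplasm by IκB proteins until an IκB kinase phosphorylates these and so marks them for degradation. The freed dimers bind κB elements in promoters and enhancers of genes for inflammation and cell survival, and among their targets are genes for their own subunits and for the inhibitors that end the response. The 9 genes described here were 5 subunit genes (Nfkb1, Nfkb2, Rela, Relb and Rel), 3 feedback inhibitor genes (Nfkbia, Nfkbie and Tnfaip3) and 1 kinase gene, Ikbkb. They were fixed by name, out of 21755 protein-coding genes on chromosomes 1 to 19 and X. A site of the deposited H3K27ac list belonged to a gene if any of its bases lay in the gene body or within 20 kb of either end. This gave 84 sites out of 122228 in the list.

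The cells were immortalised fibroblasts from mouse embryos (iMEF) and carried a lentiviral construct for human ASH2L, a subunit of histone H3 lysine 4 methyltransferase complexes, with an N-terminal FKBP12F36V tag. The endogenous Ash2l gene was floxed and its exon 4 had been deleted by Cre-ER, per the study's methods, in all cells, controls included, and the cells were a single clone. dTAG brings the tagged protein to a ubiquitin ligase for degradation. The 14 libraries comprised 2 H3K27ac ChIP-seq libraries each for control cells without dTAG and for 5 times of dTAG treatment (30 min and 2, 4, 8 and 16 h). Chromatin without immunoprecipitation (input) was sequenced once for control cells and once for cells after 16 h.

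H3K27ac, acetylation of lysine 27 of histone H3, marks active promoters and enhancers. The authors merged replicates, called peaks and joined the peaks of all samples to a single list, which gave the position of each site on its chromosome and no value per sample. Thus a site may come from any time point, there was no replicate error, neither read depth nor the height of a peak was known, and no time point was compared with control. The groups below were described by counts and widths beside the same measure over all protein-coding genes, with no test. Of 11 fibroblast marker genes, 9 had a promoter site, i.e. within 1 kb of a transcription start site (TSS), the exceptions being Lum and Dcn. Of the markers of other cell types, 2 of 6 leukocyte genes (Cd68 and Csf1r), 2 of 3 endothelial genes (Tek and Cdh5) and 0 of 3 epithelial genes had one. At Csf1r and Cdh5 this was at an internal TSS only, with none within 1 kb of the outermost 5′ end. Of all protein-coding genes, 55.8% had a promoter site.

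The sequences just upstream of 4 of the genes are given first, since they differed in whether the κB element lay in a listed site. The κB consensus was searched on both strands, and matches are in capitals. Each sequence has 200 bp and ends at the base before the annotated 5′ end, in the direction of transcription (GRCm38.p6). Relb (chr7:19629439-19629638, minus strand) held 2 matches, Rel (chr11:23770971-23771170, minus strand) 2 matches that overlapped each other, and Nfkbia (chr12:55492648-55492847, minus strand) 1 match, and at each of the 3 genes all 200 bases lay in a site. At Nfkbie (chr17:45555503-45555702, plus strand), which held 1 match, 0 of the 200 bases lay in a site.
Relb: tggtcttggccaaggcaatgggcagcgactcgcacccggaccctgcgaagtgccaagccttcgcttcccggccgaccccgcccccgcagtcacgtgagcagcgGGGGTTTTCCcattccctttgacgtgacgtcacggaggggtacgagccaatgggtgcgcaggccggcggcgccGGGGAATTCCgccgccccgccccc
Rel: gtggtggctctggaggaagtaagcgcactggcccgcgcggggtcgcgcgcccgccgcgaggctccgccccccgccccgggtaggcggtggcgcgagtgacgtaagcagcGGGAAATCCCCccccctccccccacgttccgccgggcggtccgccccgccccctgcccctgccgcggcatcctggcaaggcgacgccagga
Nfkbia: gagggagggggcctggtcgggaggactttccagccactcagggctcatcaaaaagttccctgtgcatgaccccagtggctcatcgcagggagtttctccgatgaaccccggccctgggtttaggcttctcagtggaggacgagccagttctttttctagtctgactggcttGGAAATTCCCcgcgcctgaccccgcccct
Nfkbie: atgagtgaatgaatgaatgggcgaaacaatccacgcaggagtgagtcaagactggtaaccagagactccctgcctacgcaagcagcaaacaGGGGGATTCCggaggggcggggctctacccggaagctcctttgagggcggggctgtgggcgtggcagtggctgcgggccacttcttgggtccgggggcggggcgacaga

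A promoter site was present at all 9 genes, compared with 55.8% of the 21755 protein-coding genes. At 8 of 9 the outermost annotated 5′ end itself lay in a site, compared with 36.5% of protein-coding genes. The exception was Nfkbie, whose site began 2 bases downstream of the 5′ end, and a further annotated TSS of Nfkbie, 8 bases downstream of the outermost one, lay inside this site. Thus the presence of a promoter site did not separate subunits from inhibitors, and neither did their cover, while the width of the unbroken site at the 5′ end differed, as follows.

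The 5 subunit genes had single, unbroken and wide sites over their 5′ ends. A single site within 1 kb of the 5′ end was not particular to them, since Nfkbie and Ikbkb had 1 as well. Of the 11318 protein-coding genes with a site there, 43.8% had more than 1. Positions are given in base pairs from the 5′ end, which is 0, with negative values upstream. Nfkb1 encodes p105, the precursor of p50, and its gene was at chr3:135584655-135691547 on the minus strand. Its promoter site reached from -761 to 1271 and was 2033 bp wide. Nfkb2 encodes p100, the precursor of p52 in the non-canonical pathway, and its gene was at chr19:46304320-46312385 on the plus strand. The promoter site of Nfkb2 reached from -410 to 2176 and, with 2587 bp, was the widest among the 5. Rela encodes p65, the main activating subunit, and its gene was at chr19:5637483-5648130 on the plus strand. At Rela the promoter site, from -731 to 1385, was 2117 bp wide. Relb encodes the partner of p52, and its gene was at chr7:19606217-19629438 on the minus strand. The promoter site of Relb, from -521 to 1579, was 2101 bp wide. Rel encodes c-Rel, best known from lymphocytes, and its gene was at chr11:23736847-23770970 on the minus strand. At Rel the promoter site, from -853 to 1246, was 2100 bp wide. Thus the widths of 4 of the 5 lay between 2033 and 2117 bp, although the genes themselves measured from 10648 bp (Rela) to 106893 bp (Nfkb1). At each of the 5 the site covered the 5′ end and 100% of the 1 kb downstream of it, including 5′ UTR sequence.

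The feedback inhibitor genes and Ikbkb had narrower or divided sites at the promoter. Nfkbia encodes IκBα, which binds NF-κB dimers and returns them to the cytoplasm, and its gene was at chr12:55489410-55492647 on the minus strand. At Nfkbia a site of 1641 bp from -1044 to 596 was followed, after a gap of 85 bp, by a site of 927 bp from 682 to 1608. Nfkbie encodes IκBε, an IκB protein that acts later in the response, and its gene was at chr17:45555703-45563169 on the plus strand. At Nfkbie a single site of 692 bp reached from 2 to 693, over 5′ UTR and coding sequence, and 0% of the upstream 1 kb was covered. Tnfaip3 encodes A20, a ubiquitin-editing enzyme that acts on signalling complexes upstream of the IκB kinase, and its gene was at chr10:19000910-19015657 on the minus strand. At Tnfaip3 a site of 762 bp from -688 to 73 and a site of 944 bp from 266 to 1209 were separated by a gap of 192 bp. Ikbkb encodes IKKβ, the kinase that phosphorylates IκB proteins in the canonical pathway, and its gene was at chr8:22659212-22706589 on the minus strand. At Ikbkb a single site of 907 bp lay within 1 kb of this 5′ end, from -257 to 649.

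**Figure D1:**
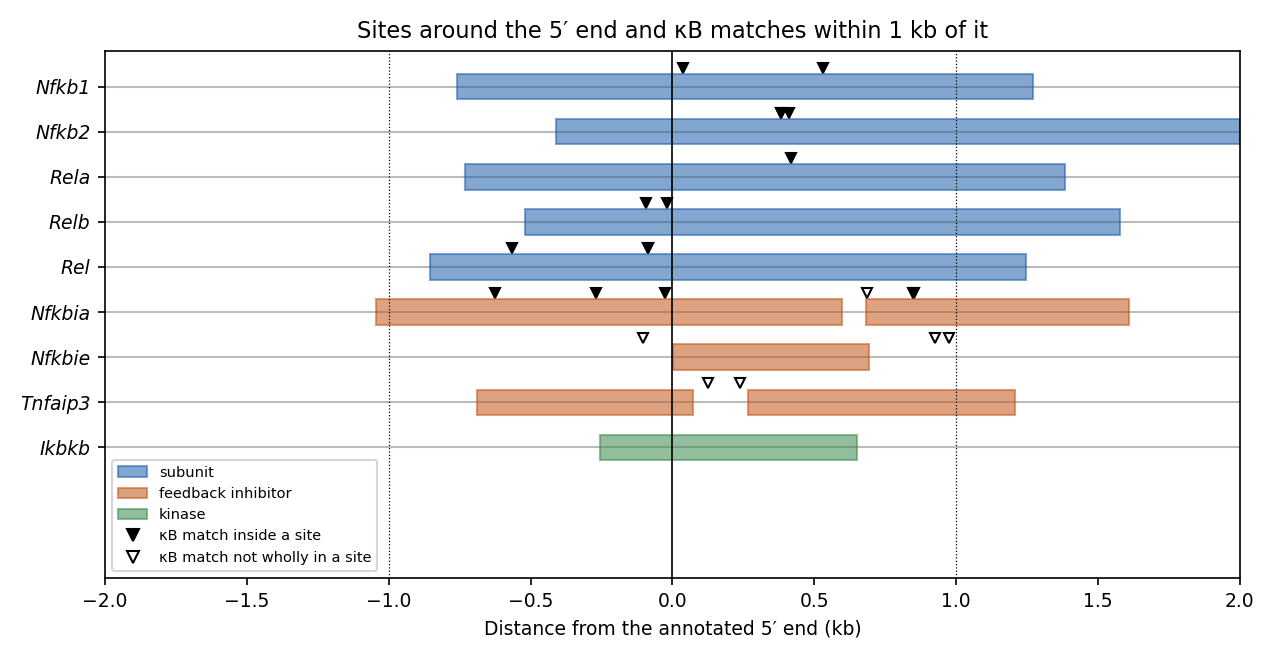
H3K27ac sites (boxes) around the annotated 5′ end of the 9 genes, with the distance from the 5′ end in kb on the horizontal axis and dotted lines at 1 kb on either side. Triangles are κB matches within 1 kb of the 5′ end, filled where the match lay wholly inside a site. The 5 subunit genes had 1 unbroken box across the 5′ end with all their matches inside, Nfkbia and Tnfaip3 had 2 boxes with a gap, and the box of Nfkbie began at the 5′ end. The site of Nfkb2 extends past the right edge, to 2176 bp.

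The site nearest to the 5′ end was over 2000 bp wide at 5 of 5 subunit genes and at 0 of 3 feedback inhibitor genes, and the 2 groups did not overlap (2033 to 2587 bp against 692 to 1641 bp). Of 7931 protein-coding genes with the 5′ end in a site, 22.1% had a site of over 2000 bp there, and the median width was 1307 bp. The limit of 2000 bp was chosen after the widths were seen. At a limit of 2500 bp only Nfkb2 remained. When sites less than 1 kb apart were merged, Nfkbia joined the subunits, with 2653 bp from the first to the last base, against 1898 bp at Tnfaip3. Likewise, all of the 1 kb downstream of the outermost 5′ end lay in sites at 5 of 5 subunit genes and at none of the other 4 members. The cover there was 91.5% at Nfkbia, 80.8% at Tnfaip3, 69.2% at Nfkbie and 64.9% at Ikbkb. All of it was covered at 40.8% of the protein-coding genes with the 5′ end in a site. Further protein-coding TSSs lay at 476 in Rela and 965 in Relb. Less than 1 kb of the sites remained past these, since they ended at 1385 and 1579. Thus 5 of 5 holds for the outermost 5′ end only, and cover downstream of other TSSs was not computed. The cover of the upstream 1 kb did not separate the groups, with 41.0% to 85.3% at the subunit genes and 100% at Nfkbia, 68.8% at Tnfaip3 and 0% at Nfkbie.

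Promoter cover, the share of bases within 1 kb on either side of the 5′ end that lay in sites, had a median of 86.6% over the 5 subunit genes and of 74.8% over the 3 feedback inhibitor genes. The ranges overlapped. The highest value of all 9 genes was 95.8% at Nfkbia, followed by Rel (92.7%), Nfkb1 (88.1%), Rela (86.6%), Relb (76.1%), Tnfaip3 (74.8%), Nfkb2 (70.5%), Ikbkb (45.3%) and Nfkbie (34.6%). The median over protein-coding genes with a promoter site was 62.3% (quartiles 41.2% and 79.8%), so that the 2 lowest genes lay below and the others above it. The difference between the medians was 11.7 percentage points, and 1.27 without Nfkbie. Base composition around the 5′ end differed among the members as well. The 1 kb around the 5′ end was CpG-rich (at least 50% G and C, and CpG at 0.6 or more of the number expected from base composition) at 8 of 9 genes, compared with 44.8% of protein-coding genes. The exception was Nfkb2, with a CpG ratio of 0.557. The GC content was 65.6% to 69.8% at Nfkb1, Rela, Relb and Rel, 56.8% at Nfkb2, 64.2% at Nfkbia, 57.1% at Tnfaip3 and 54.7% at Nfkbie, and its part in the width of the sites was not tested.

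**Figure D2:**
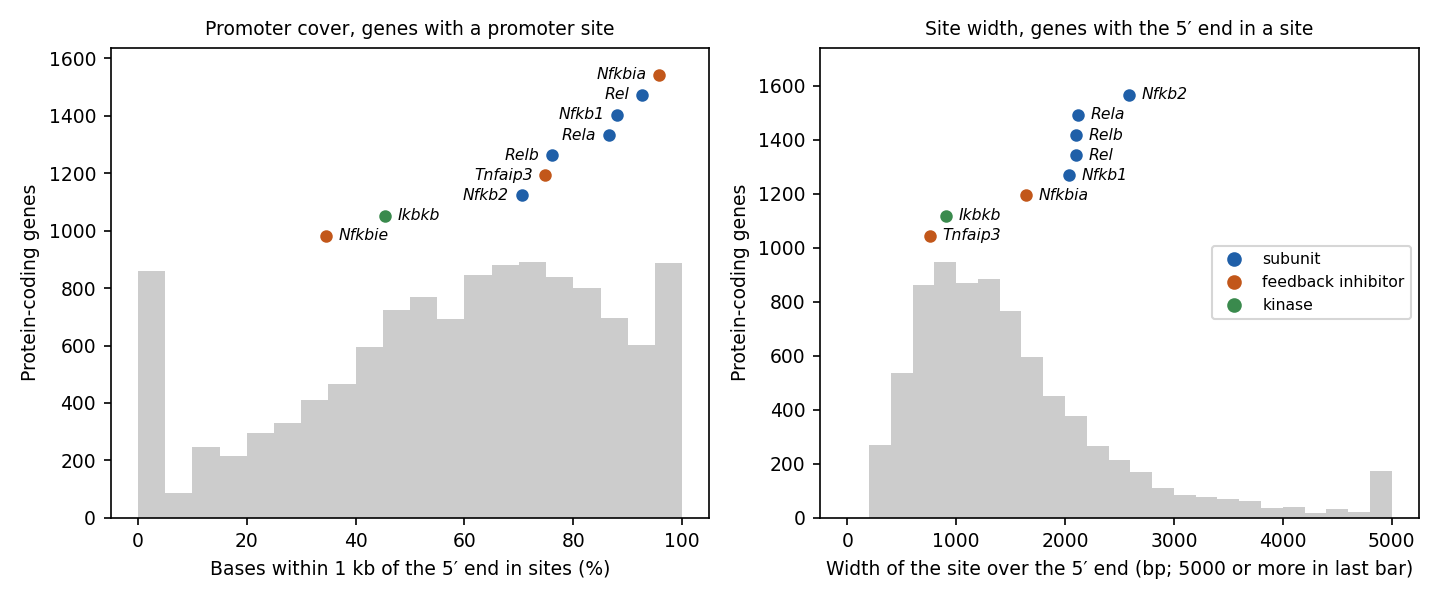
Left, promoter cover in % of the bases within 1 kb of the 5′ end, and right, width in bp of the site over the 5′ end. Grey bars are numbers of protein-coding genes (12132 with a promoter site on the left, 7931 with the 5′ end in a site on the right), and points mark the members, whose height carries no value. The subunit genes sit between 70.5% and 92.7% of cover, within the range of the inhibitors, but between 2033 and 2587 bp of width, above Nfkbia, Tnfaip3 and Ikbkb.

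κB elements were present near most of these promoters. At least 1 match lay within 1 kb of the 5′ end at 8 of 9 genes, all but Ikbkb, compared with 24.9% of protein-coding genes and with 29.5% of those with a CpG-rich 5′ end. The 8 genes held 22 matches, some of which overlapped each other, and the number per gene ranged from 1 at Rela to 6 at Nfkbia. Subunit and feedback inhibitor genes had 11 matches each. Matches that overlapped each other were counted separately. At the subunit genes 11 of 11 matches were inside a site, while at the feedback inhibitor genes 5 of 11 were, all of them at Nfkbia. Over all members this was 16 of 22 matches (72.7%), near the 73.0% of 4387 matches at protein-coding genes with a promoter site. Thus 5 of 5 subunit genes and 1 of 3 feedback inhibitor genes had a match within 1 kb of the 5′ end wholly inside a site, compared with 74.4% of the 3319 protein-coding genes with a promoter site and a match. This split rests on where the sites end as well as on the matches, and its relation to the width of the sites was not tested. A match is a description of the sequence, and binding of NF-κB was not measured. Promoter cover at the 2 feedback inhibitor genes without such a match was 74.8% (Tnfaip3) and 34.6% (Nfkbie).

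The matches inside sites at the subunit genes without one in the 200 bp upstream lay downstream of the outermost annotated 5′ end. The 30-base stretches below are given in the direction of transcription, with matches in capitals. The match at Nfkb1 nearest to the 5′ end (chr3:135691507-135691516) was 31 bp downstream, in the 5′ UTR, and the nearest pair of overlapping matches at Nfkb2 (chr19:46304698-46304707 and 1 base further) was 378 bp downstream, also in a UTR. The match at Rela (chr19:5637898-5637907) was 415 bp downstream in an intron. A second match at Nfkb1, 528 bp downstream in an intron, and a further one at Nfkb2, 406 bp downstream in a UTR, also lay inside these sites. The named matches of Nfkb2 and Rela were upstream of further TSSs of protein-coding transcripts inside the same sites. These TSSs were 424 and 480 bp from the outermost 5′ end at Nfkb2 and 476 bp at Rela.
Nfkb1: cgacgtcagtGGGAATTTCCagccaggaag
Nfkb2: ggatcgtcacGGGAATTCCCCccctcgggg
Rela: ggcctgcggcGGAATCTCCCccctccccgc

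At Tnfaip3 and Nfkbie the matches flanked the sites. Both matches of Tnfaip3 within 1 kb of the 5′ end (chr10:19015526-19015535 and chr10:19015413-19015422) lay in the 192-bp gap between the promoter sites, 49 and 22 bp from the nearer site. The second ended 3 bp before a TSS of another protein-coding transcript of Tnfaip3, which also lay in the gap. At Nfkbie the upstream match printed above was 102 bp from the site, and a pair of intronic matches (chr17:45556624-45556633 and chr17:45556672-45556681) was 228 and 276 bp past its end. At Nfkbia 1 match (chr12:55491957-55491966) had 1 base in the gap between the promoter sites.
Tnfaip3, first: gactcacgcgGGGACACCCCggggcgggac
Tnfaip3, second: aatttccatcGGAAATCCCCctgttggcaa
Nfkbie, first intronic: cctgggaagaGGAATTCCCCcgcaaccaat
Nfkbie, second intronic: gttgggggaaGGAATGTCCCtgtttgctca
Nfkbia: ggtggggcacGGAAAGTCCCtgggcggctg

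Over all 84 sites a κB match was present in 13, compared with 8.31% of the 122171 sites on chromosomes 1 to 19 and X. These lay at 8 of 9 genes, all but Nfkbie, compared with 53.9% of protein-coding genes with a promoter site, counted over gene body and flanks. Of these 13 sites, 11 were among the 19 promoter sites, that is, sites within 1 kb of any TSS of the same gene, and 2 among the 65 other sites. The latter were a site of 629 bp at 84583 in Nfkb1 and a site of 1700 bp at 25031 near Rela, which lay within 1 kb of a TSS of Sipa1, a Rap GTPase-activating protein gene. The median width was 907 bp over the 19 promoter sites and 340 bp over the 65 others. The share with a match over the promoter sites of all genes was not computed. The element for AP-1, TGANTCA, was present in 19 of the 84 sites (22.6%), against 21.1% of all sites. No κB match shared a base with an AP-1 match.

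The remaining 65 sites, referred to as flanking, were over 1 kb from every TSS of their gene. Of these, 29 were intronic, 29 downstream of the gene, 5 over exons and 2 upstream. The flanking sites lay unequally, since Nfkb1 had 27 of the 34 within gene bodies. Per 10 kb of gene and flanks, the subunit genes had 1.84 (Nfkb1), 1.21 (Rel), 0.949 (Relb), 0.592 (Rela) and 0.208 (Nfkb2) flanking sites, and the feedback inhibitor genes 1.26 (Nfkbie), 0.925 (Nfkbia) and 0.913 (Tnfaip3), with 0.458 at Ikbkb. The medians were 0.949 and 0.925, and the median over protein-coding genes with a promoter site was 0.623 (quartiles 0.252 and 1.20). The sign of the difference of 0.0239 changed with the processing: it was -0.518 when only sites over 1 kb from a TSS of any protein-coding gene were counted, and -0.154 without Nfkb1. Hence subunits and inhibitors could not be ordered by flanking sites.

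Nfkb1 had the most sites of the 9 genes. Of its 33 sites, 0 were in the upstream or downstream flank, 27 were flanking sites in the gene body and 6 were within 1 kb of a TSS, 5 of these at internal TSSs. In sites per 10 kb (2.25), Nfkb1 lay above 93.3% of protein-coding genes. A run of 10 sites less than 1 kb apart reached from 14171 to 23841 and held 7064 bp of site sequence. Its widest site, of 3184 bp from 16206 to 19389, was intronic, exceeded the promoter site of Nfkb1 in width and was the widest of all 84. Its last sites lay over internal TSSs, 22208 and 23748 bp downstream of the 5′ end, of which the latter starts a protein-coding transcript. A further intronic site of 1518 bp began at 61853. The run held 2 κB matches (chr3:135670770-135670779 and chr3:135668972-135668981), both intronic.
Nfkb1, first in the run: gggtacataaGGGACTTTCCcactgctttc
Nfkb1, second in the run: tcaagttatgGGAATGTCCCgagatgtttt

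**Figure D3:**
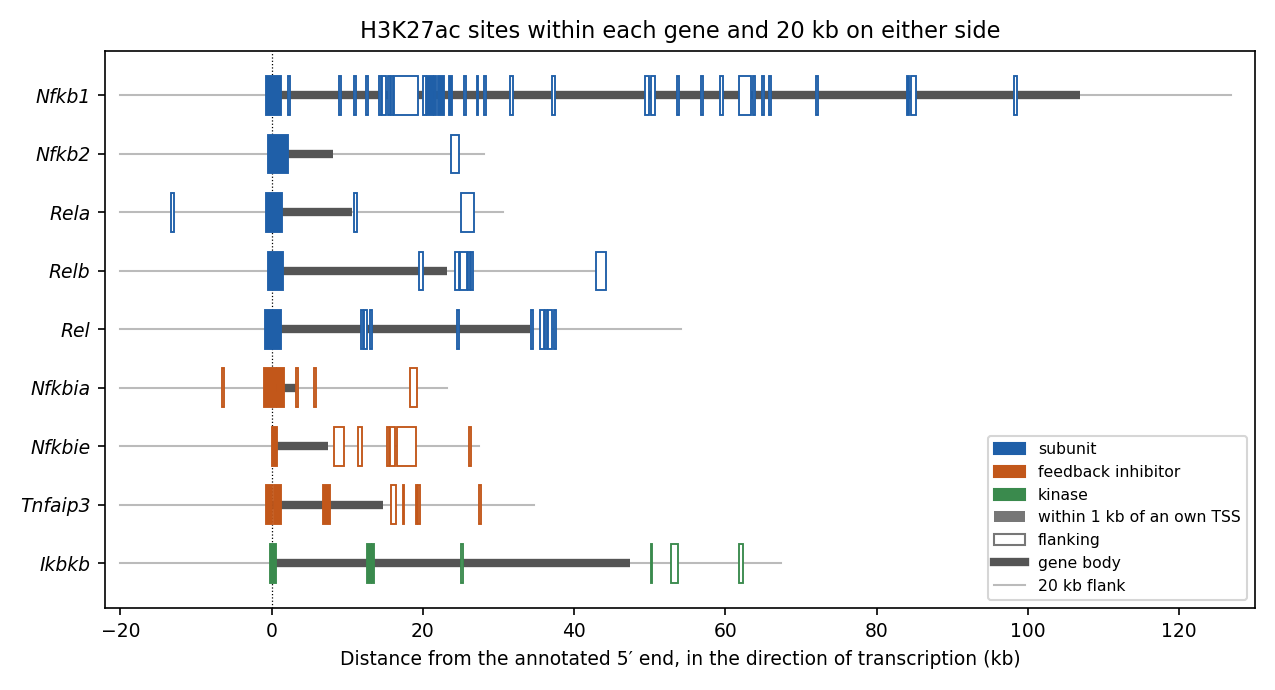
All 84 sites at the 9 genes, with the distance from the annotated 5′ end in kb in the direction of transcription, thick lines for gene bodies and thin lines for the 20 kb on either side. Filled boxes are sites within 1 kb of a TSS of the same gene and open boxes are flanking sites, and sites under 250 bp are drawn at that width so that they remain visible. Nfkb1 holds 33 of the 84 sites, all in or over its gene, and the upstream flanks are empty at 7 of the 9 genes.

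The upstream flanks held 2 flanking sites, compared with 29 downstream of the genes and 34 in gene bodies. Over protein-coding genes with a promoter site, the mean per gene was 1.56 upstream, 1.99 downstream and 4.65 in the gene body. In these means a site across a gene end counted in both places. Of the 34 in gene bodies of the members 27 were at Nfkb1, and 4 of 9 genes had none there. At 7 of 9 genes no site lay in the 20 kb upstream beyond the promoter, compared with 46.7% of the 12132 protein-coding genes with a promoter site. The exceptions were a site of 392 bp at -13326 at Rela and a site of 236 bp at -6547 at Nfkbia. With a flank of 50 kb, 2 of 9 genes had no upstream site, and the share over protein-coding genes was not computed at that flank. At Tnfaip3 the flanking sites were 5 downstream sites of 207 to 682 bp, and a site of 980 bp at an internal TSS, over a coding exon from 6750 to 7729, held the only κB match inside a site of this gene. At Rel, 5 sites less than 1 kb apart, from 34349 to 37506, lay just past the end of the gene, and 3 intronic sites clustered at 11784 to 13262. At Nfkbia a site of 1022 bp lay at 18242, past the end of the gene. At Ikbkb 2 sites of 551 and 200 bp lay near an internal TSS, 12524 bp downstream of the 5′ end.

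Of the flanking sites, 14 were within 1 kb of a TSS of another gene, 11 of them of a protein-coding gene. The single flanking site of Nfkb2 (1044 bp) was at the TSSs of Fbxl15 and Psd. Near Relb, 4 sites were at TSSs of Clasrp and 1 further site only at Gm26890. Near Nfkbie, the widest flanking site, 2531 bp, and 2 more were at Hsp90ab1, the gene for a constitutive HSP90 chaperone, and a site of 1360 bp was at Slc35b2. A site of 866 bp near Ikbkb was at Polb, the gene for DNA polymerase beta, and a site of 563 bp at Gm26909. These sites were assigned to the members by distance only. The promoter site of Nfkb2 lay also within 1 kb of a TSS of AC114539.1, and an intronic site of Nfkb1 was near Gm43430.

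The wider pathway was described with the same measure. All 12 adaptor and kinase genes between receptors and the IκB kinase had a promoter site, with a median promoter cover of 68.0% over all genes of the list, as for the lists below. Traf3 (100%) and Tab2 (95.1%) had the highest and Traf6 (42.4%) and Tab1 (52.3%) the lowest cover. The same was true of 5 of 5 further genes of the IκB kinase and of LUBAC, the ligase that forms linear ubiquitin chains, with a median of 77.5%, the highest at Sharpin (88.8%) and Rnf31 (86.3%) and the lowest at Ikbkg (70.3%) and Chuk (75.9%). Of 8 receptor genes 7 had a promoter site, with a median of 64.1%. Ltbr (89.2%), the lymphotoxin beta receptor, and Il1r1 (81.3%) had the highest cover, Tlr3 had 38.03%, and none was present at Cd40, a receptor of B cells and antigen-presenting cells. Of 10 further inhibitor genes 9 had a promoter site, with a median of 50.7%. Bcl3 (92.9%) and Otulin (66.2%) had the highest cover. Tnip1 had a site only at an internal TSS, with 0% at the outermost 5′ end, and Nfkbid had none. Sites of over 2000 bp at the 5′ end were not limited to subunit genes. Among genes with the 5′ end in a site, they were present at 2 of 9 adaptor and kinase genes and 2 of 6 receptor genes. The same held for 1 of 3 genes of the IκB kinase and LUBAC and 1 of 6 further inhibitor genes (Bcl3, 2398 bp). Of the NF-κB target genes described below, it held for 3 of 9. The share over protein-coding genes with the 5′ end in a site was 22.1%. Among the 11 fibroblast marker genes, the site nearest to the 5′ end was over 2000 bp wide at 6.

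Among 22 genes known as NF-κB targets, 11 had a promoter site, and the median cover was 0%, compared with 16.5% over all 21755 protein-coding genes. The background share for a promoter site was 55.8%, as given above. The highest cover was at Csf1 (100%), encoding a growth factor for macrophages, and at Ccl2 (95.0%), encoding a chemokine for monocytes. No promoter site was listed at Tnf, Il1b, Csf2, Ccl5, Cxcl1, Cxcl2, Cxcl10, Icam1, Mmp9, Lcn2 and Saa3. At Traf1 the 2 promoter sites were at internal TSS positions only, with 0% at the outermost 5′ end. An absent site says only that no peak was listed in any library.

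**Figure D4:**
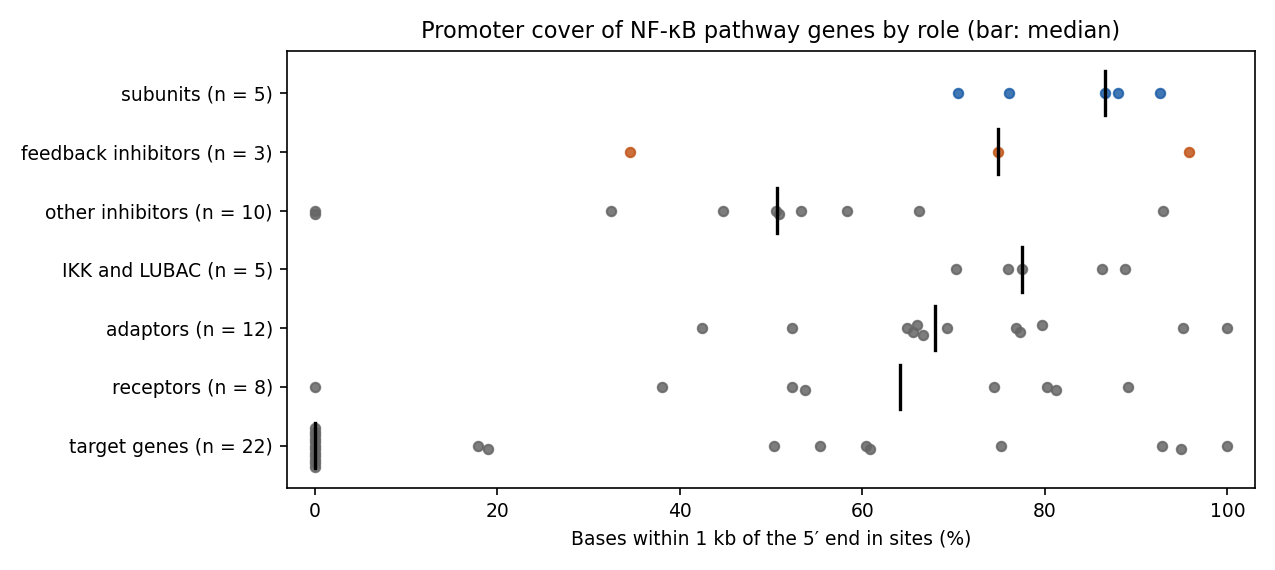
Promoter cover, in % of the bases within 1 kb of the 5′ end, for the subunit and feedback inhibitor genes and for the other genes of the pathway by role. Each point is a gene and the black bar is the median of the role. The medians are 86.6% for subunits and 74.8% for feedback inhibitors, and 0% for the 22 target genes, which spread from 0% to 100%.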

How the data were processed

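H3K27ac ChIP-seq libraries of iMEF cells were used in the form of the authors' list of sites. Per the study's methods, the authors used Trim Galore for trimming, BWA for alignment to GRCm38 (mm10), SAMtools for filtering, Picard to merge replicates and MACS to call narrow peaks. The version and threshold of MACS and the way the peaks were joined are not given in the sources used here. Joining can widen a site beyond its width in any sample. The deposited values were genome positions in base pairs, with no count, score or p-value, so the depth of the samples was unknown and no precision could be derived. Starts were read as counted from 0 and are printed counted from 1.

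Sites were assigned with Python 3.11.15, pandas 2.3.3 and pysam 0.24.0, using GENCODE release M21 (the authors used a later release) and the RefSeq sequence of GRCm38.p6. The code was tested on simulated data. Background genes were the 21755 protein-coding genes on chromosomes 1 to 19 and X. All members, and of each wider list the genes with the 2 highest and lowest values and those without a site, were to be named. The members and lists were chosen with earlier results of these data known. No statistical test was made, since the sites had no replicate values.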

Additional observations from a re-analysis of the deposited data

How the results depend on the processing

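Of 40 alternatives, 23 left a result within 1.5 times its value, 11 moved it further (1 of them, the count of bases, through its unit) and 6 changed its sign. The 84 assigned sites became 53 in gene bodies alone, 129 with a flank of 50 kb and 52 when sites less than 1 kb apart were merged. The difference in median promoter cover (11.7 percentage points) was 19.2 in a window of 500 bp, 7.40 at the protein-coding TSS covered most and 1.27 without Nfkbie. The difference in flanking sites per 10 kb (0.0239) was 0.431 in gene bodies alone and 0.097 without the narrowest 25% of all sites, and, counted in bases, 28.05 bp per 10 kb (458 against 430 bp), a value in another unit. It was negative over sites away from all protein-coding TSSs (-0.518), with flanks of 10 kb (-0.134) or 50 kb (-0.356), with means (-0.0738), with merged sites (-0.368) and without Nfkb1 (-0.154). The number of genes with a site over 2000 bp at the 5′ end (5) was 1 at a limit of 2500 bp, 6 at 1500 bp and 6 with merged sites, while the share over protein-coding genes was 12.4%, 39.5% and 44.7%. The number without an upstream site (7) was 2 with a flank of 50 kb, for which no share over protein-coding genes was computed. The alternatives on width, on upstream sites and on leaving out Nfkbie or Nfkb1 were chosen after seeing the data. The cause of these shifts was not tested. No paired analysis was possible because positions alone carry no value for a replicate.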

Other observations

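Promoters of the NF-κB target genes held κB matches whether or not they had an H3K27ac site. Of the 22 target genes, 16 had a match within 1 kb of the 5′ end. This was 8 of the 11 genes with a promoter site and 8 of the 11 without one, the latter being Tnf, Il1b, Ccl5, Cxcl1, Cxcl2, Cxcl10, Icam1 and Lcn2. The share over all protein-coding genes was 24.9%. The genes were listed as targets from general knowledge of the pathway, which in part rests on such elements, and no test was made.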
